A study of Mus musculus with 19 samples.

Results

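The genes described here are 48 nuclear genes of mitochondrial energy metabolism: the tricarboxylic acid (TCA) cycle with the enzymes that feed pyruvate into it, complexes II and III of the respiratory chain with cytochrome c, the ATP synthase, and 3 genes of nucleotide and phosphate exchange (Slc25a4, Vdac1 and Ckmt2). They were chosen by name, and each was measured as the share of its gene span, plus 2 kb on each side, that lay under 5-hydroxymethylcytosine (5-hmC) peaks. All 48 were found in the mouse annotation, among 21774 protein-coding genes, and all 48 were among the 17593 genes with a peak in at least 2 of the 8 peak lists, which were the genes tested. Atp5f1 was found under its newer symbol Atp5pb. The peaks came from hydroxymethylated DNA immunoprecipitation sequencing of ventricular cardiomyocytes (CMCs) of C57BL/6J mice, with 2 biological replicates at each of 4 points. The lists come from embryos at E14.5, a day of gestation, from neonates aged 1 to 2 days, from adults aged 2 months, and from adults 1 week after transverse aortic constriction (TAC), an operation that narrows the aorta and loads the left ventricle. The mice were male. Adult and TAC cells came from the perfused left ventricle and were let settle, whereas embryonic and neonatal cells came from digested ventricles and were cleared of cells that adhere to plates, so age and isolation method cannot be told apart. The labels of the adult group name no operation, and no list labelled as sham-operated was analysed here, so the operation and the pressure load cannot be told apart.

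The TCA cycle oxidizes acetyl groups to carbon dioxide and passes electrons to NADH and FADH2. Complex II (succinate dehydrogenase) is both an enzyme of the cycle and an entry point of the respiratory chain, complex III passes electrons from ubiquinol to cytochrome c, and the ATP synthase uses the proton gradient to make ATP. The embryonic heart depends largely on glycolysis, and the heart turns to oxidative metabolism after birth. 5-hmC is made from 5-methylcytosine by the TET enzymes, is found in the bodies of expressed genes and is scarce at active CpG-rich start sites. A peak list says where 5-hmC was enriched and how far the enrichment extended, and says nothing of the amount of messenger RNA or protein.

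Several facts of the whole data set touch the values below. The 8 lists held between 104215 and 153637 peaks, and peaks covered on average between 3.78% and 7.84% of a protein-coding gene with its flanks. The read depth was not in the lists and is unknown, so a stretch without a peak is not shown to lack 5-hmC. TAC replicate 2 stood apart: 30.8% of its peaks shared at least 50% of their length with a peak of another list, against 74.0% to 82.7% in the other 7 lists. TAC values are therefore given for each replicate. The headers also say that 4 lists (both E14.5, neonatal replicate 1 and adult replicate 1) were called with the control scaled to the precipitated library, and the other 4 the other way round. Of 10 CMC marker genes, the mean share covered was 3.99 to 4.57 times that of all protein-coding genes in the E14.5 lists, 4.02 to 4.29 times in neonates, 1.57 to 1.95 times in adult and 1.88 to 2.67 times under TAC, with between 0 and 2 of the 10 without a peak in a list. Fibroblast markers lay between 0.200 and 0.785 times, with 4 to 7 of 10 without a peak, and endothelial markers between 1.07 and 2.05 times, with 0 or 1 of 10 without a peak. In such preparations a change in the makeup of the cells and a change within the CMCs cannot be told apart.

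To show what the measured stretches look like, 6 stretches of 300 bases are given, each from the part of a named gene that lay under peaks in the most lists. They are GRCm38 (mm10) sequence, read 5′ to 3′ on the strand of the gene, with CG dinucleotides, the sites where 5-hmC forms, in capitals. No stretch holds an exon of an annotated gene. The Suclg1 stretch (chr6:73259113-73259412, intron) lay in a part covered in all 8 lists, and that of its partner subunit Suclg2 (chr6:95710411-95710710, intron) in one covered in both lists of E14.5, neonatal and adult CMCs. The Sdhd stretch (chr9:50597931-50598230, intron) was covered in neonatal replicate 1, both adult lists and TAC replicate 1, and the Atp5c1 stretch (chr2:10066182-10066481, intron) in both neonatal and both adult lists and TAC replicate 1. The Atp5j2 stretch (chr5:145183957-145184256, intron) was in 6 lists, and the Slc25a4 stretch (chr8:46206260-46206559, after the end of the gene) in both E14.5 and both neonatal lists and no other.
Suclg1: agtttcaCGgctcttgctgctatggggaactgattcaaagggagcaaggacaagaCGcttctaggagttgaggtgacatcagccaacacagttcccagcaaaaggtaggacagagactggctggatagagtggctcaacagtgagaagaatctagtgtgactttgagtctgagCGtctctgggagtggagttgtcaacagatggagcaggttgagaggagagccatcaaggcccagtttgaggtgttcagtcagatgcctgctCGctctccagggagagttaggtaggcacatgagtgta
Suclg2: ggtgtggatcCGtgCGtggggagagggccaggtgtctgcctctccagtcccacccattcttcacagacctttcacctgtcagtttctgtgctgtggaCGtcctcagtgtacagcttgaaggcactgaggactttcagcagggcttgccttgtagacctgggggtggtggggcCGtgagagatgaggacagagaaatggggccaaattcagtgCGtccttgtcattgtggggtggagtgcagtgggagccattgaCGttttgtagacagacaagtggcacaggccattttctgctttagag
Sdhd: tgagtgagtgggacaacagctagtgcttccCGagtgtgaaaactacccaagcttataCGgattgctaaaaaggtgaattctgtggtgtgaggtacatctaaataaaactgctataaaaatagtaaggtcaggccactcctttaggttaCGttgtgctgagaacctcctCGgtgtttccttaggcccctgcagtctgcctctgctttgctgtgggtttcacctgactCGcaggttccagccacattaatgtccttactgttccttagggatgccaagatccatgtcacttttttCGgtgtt
Atp5c1: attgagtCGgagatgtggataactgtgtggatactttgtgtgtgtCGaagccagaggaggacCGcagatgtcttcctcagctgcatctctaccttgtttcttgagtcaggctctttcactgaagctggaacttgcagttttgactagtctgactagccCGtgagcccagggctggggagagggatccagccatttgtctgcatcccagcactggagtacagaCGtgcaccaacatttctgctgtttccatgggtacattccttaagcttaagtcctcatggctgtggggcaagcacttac
Atp5j2: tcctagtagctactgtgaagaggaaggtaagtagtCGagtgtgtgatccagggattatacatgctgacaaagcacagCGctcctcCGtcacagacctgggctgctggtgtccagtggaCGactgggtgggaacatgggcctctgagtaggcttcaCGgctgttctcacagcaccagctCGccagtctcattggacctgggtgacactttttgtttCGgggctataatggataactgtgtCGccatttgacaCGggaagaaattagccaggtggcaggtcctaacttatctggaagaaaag
Slc25a4: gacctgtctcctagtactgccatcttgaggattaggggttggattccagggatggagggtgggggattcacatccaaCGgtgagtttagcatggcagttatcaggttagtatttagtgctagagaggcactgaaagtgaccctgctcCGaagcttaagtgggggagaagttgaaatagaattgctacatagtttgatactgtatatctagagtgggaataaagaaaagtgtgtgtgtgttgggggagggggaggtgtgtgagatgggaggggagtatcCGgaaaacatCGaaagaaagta

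These stretches held between 4 CG dinucleotides (Suclg1 and Slc25a4) and 9 (Atp5j2) in 300 bases. The 250 bases directly before the start of Slc25a4 (chr8:46211063-46211312, minus strand) are shown against them. They held 18 CG dinucleotides and lay under no peak in any list.
Slc25a4 start: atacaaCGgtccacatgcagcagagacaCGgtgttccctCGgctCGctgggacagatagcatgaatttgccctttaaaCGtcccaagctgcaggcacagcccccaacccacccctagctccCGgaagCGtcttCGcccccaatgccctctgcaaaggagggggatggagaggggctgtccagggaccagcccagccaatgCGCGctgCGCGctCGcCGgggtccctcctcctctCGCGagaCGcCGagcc

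Over all 48 windows CG dinucleotides numbered 1.27 per 100 bp. Under the peaks of the members they numbered 1.45 to 1.63 per 100 bp in the lists other than TAC replicate 2, where they numbered 1.21. RefSeq promoters, from 250 bases before to 50 after a start, were on hand for 41 of the 48 members. A promoter of the members held a median of 20 CG dinucleotides, against 13 over the 21263 promoters of 17492 protein-coding genes. The letters AAGGTCA, the core of sites bound by estrogen-related receptors, stood on either strand in a promoter of 8 of the 41 members (19.5%; Atp5e, Atp5g3, Atp5k, Atp5l, Atpif1, Ogdh, Sdhd and Vdac1), against 4.73% of all genes. The letters TATAAA stood in 1 (Atp5l) and CCAAT in 24 of the 41, against 14.8% and 42.3% of all genes. No one of these 3 letter runs contains another. A match describes letters in this window and is no evidence of binding.

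The members were covered about as much as other genes at E14.5, above them in one list and below in the other, and more than other genes in both neonatal lists. Peaks covered on average 6.05% ± 2.07 (SD, n = 2) of a member at E14.5 and 16.6% ± 0.154 (SD, n = 2) in neonatal CMCs, while all protein-coding genes stood at 5.00% ± 0.254 and 6.57% ± 0.863 (SD, n = 2 each). In adult CMCs the members stood at 14.7% ± 1.45 (SD, n = 2), and under TAC at 9.06% ± 5.23 (SD, n = 2), which is 12.8% in replicate 1 and 5.36% in replicate 2. The 2 E14.5 lists lay at 7.51% and 4.58% and lay below the 4 neonatal and adult lists. Relative to all protein-coding genes the mean of the members came to 1.20 ± 0.352 times at E14.5, to 2.54 ± 0.358 in neonates, to 2.17 ± 0.226 in adults and to 1.80 ± 0.542 under TAC (SD, n = 2 each). The E14.5 lists lay at 1.45 and 0.951, on both sides of all genes, and the TAC lists at 2.19 and 1.42. As a ratio of medians the E14.5 value was 1.77. Against genes of the same length class, weighted as the members fall into 4 classes, these ratios were 1.21 ± 0.340, 2.57 ± 0.361, 2.12 ± 0.255 and 1.77 ± 0.501 (SD, n = 2 each), with 2.12 in TAC replicate 1 and 1.42 in TAC replicate 2. With 2 lists against 2, an exact permutation test cannot give a p below 0.333, and no test was made of this mean.

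**Figure D1:**
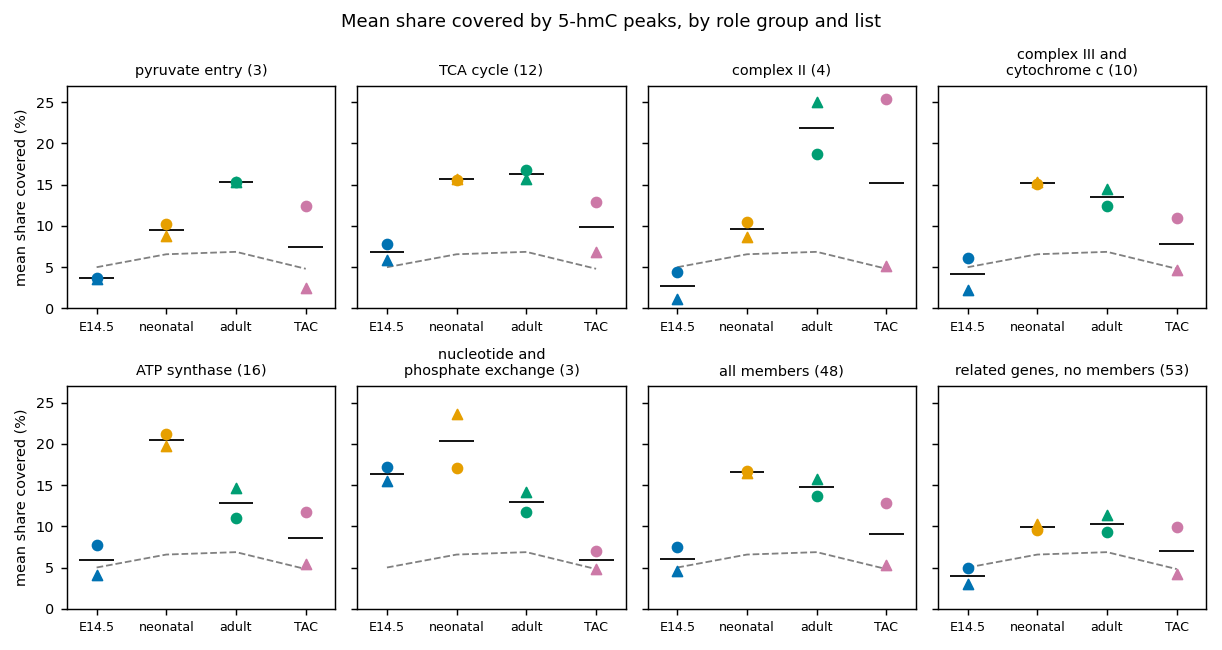
Mean share of gene span plus 2 kb under 5-hmC peaks (vertical axis, %) at the 4 points (horizontal axis) for each role group, all members and related genes, with the number of genes in brackets. Circles are replicate 1, triangles replicate 2, black bars the mean of the replicates and the dashed line the mean over all protein-coding genes. The mean of all members lay at 16.7% and 16.5% in the neonatal lists against 7.51% and 4.58% at E14.5.

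The ATP synthase and complex II stood highest at different points. The 16 genes of the ATP synthase were most covered in neonatal CMCs, with means of 5.95% ± 2.56 at E14.5, 20.5% ± 0.997 in neonates and 12.8% ± 2.59 in adults (SD, n = 2 each), and 11.7% and 5.47% in the TAC lists. The 4 genes of complex II had 2.75% ± 2.35 at E14.5, 9.61% ± 1.31 in neonates and 21.8% ± 4.43 in adults, and stood at 25.4% and 5.10% in the TAC lists (SD, n = 2 each). The adult lists were above both neonatal lists for complex II and for the 3 genes of pyruvate entry (9.53% ± 0.994 in neonates and 15.4% ± 0.00250 in adults). They were below both neonatal lists for the ATP synthase, for the 10 genes of complex III and cytochrome c (15.2% ± 0.136 and 13.5% ± 1.40) and for the 3 exchange genes (20.3% ± 4.61 and 13.0% ± 1.73), and overlapped them for the 12 TCA cycle genes (15.7% ± 0.131 and 16.2% ± 0.716; SD, n = 2 each). Of the 3 exchange genes only Slc25a4 had a lower mean in adults, at 29.9% in neonates and 0% in adults. The means of Ckmt2 (5.22% and 12.5%) and Vdac1 (25.8% and 26.4%) were higher in adults. In the TAC lists pyruvate entry stood at 12.4% and 2.43%, the TCA cycle at 12.9% and 6.81%, complex III at 11.0% and 4.63%, and exchange at 6.96% and 4.78%. Whether the role groups differ from each other was not tested.

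Gene by gene, no member passed the test over all genes. The limma F-test on log2(percent + 1) over the 4 points called 0 of 48 members and 0.0% of the 17593 genes at an adjusted p below 0.05, and for each of the 3 transitions between neighbouring points it also called 0 members and 0.0% of all genes. The lowest adjusted p among members were 0.0732 for Slc25a4, 0.0926 for Uqcrq, 0.112 for Atp5b and 0.169 for Atp5c1. At an unadjusted p below 0.05 the F-test had 14 of 48 members (29.2%) against 10.9% of all genes. The exact permutation test over the divisions of the 8 lists into 4 pairs, whose smallest p is 0.00952, had 10 of 48 members (20.8%) below 0.05 against 7.5% of all genes. Atp5e alone reached the smallest p, 1 of 48 members (2.08%) against 1.28% of all genes, which is near that share. Per transition, the unadjusted limma p was below 0.05 for 15 members higher and 0 lower from E14.5 to neonatal (5.5% and 0.807% of all genes), for 0 higher and 5 lower from neonatal to adult (3.3% and 4.96%), and for 0 higher and 5 lower from adult to TAC (1.48% and 5.22%). Differences between points are therefore given below as values per list and by whether the replicates overlap, and not as calls. The exact permutation p printed beside single members below are all under 0.05. The other members named for the largest differences had 0.0952 (Atp5j2), 0.105 (Atp5d), 0.133 (Atp5j), 0.229 (Sdhb), 0.295 (Atp5o) and 0.657 (Atpif1) in that test. All these members were named by the same values, so a p beside a name is a description.

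From E14.5 to neonatal CMCs both neonatal lists lay above both E14.5 lists in 31 of 48 members (64.6%), against 25.9% of all genes tested. Apart from Slc25a4, the members whose replicates overlapped here were Pcx, Idh3b, Mdh1, Suclg2, Sdha, Cyc1, Uqcrb, Uqcrfs1, Uqcrc1, Atp5k, Atp5g1, Atp5g3, Atpif1, Atp5o, Atp5l and Ckmt2. Both lay below in 1 member, Slc25a4, against 6.92% of all genes. The mean was higher in 47 of 48 members, against 61.5%, and the median difference was 8.43 percentage points over the members and 0.792 over all genes tested. On the log2(percent + 1) scale of the test the median difference was 1.59 over the members and 0.21 over all genes from E14.5 to neonatal, 0.00 and -0.08 from neonatal to adult, and -0.62 and -0.28 from adult to TAC. Neonatal replicate 1, scaled against its control as both E14.5 lists were, lay above both of them in 40 members, against 37.4% of all genes. From neonatal to adult CMCs both adult lists lay above in 11 members (22.9%) against 16.3% of all genes, and below in 10 (20.8%) against 22.0%. Both counts lie near the share of all genes. The 11 were Pdhb, Dlat, Idh3b, Fh1, Sucla2, Ogdh, Sdhb, Sdhc, Atp5e, Atp5g2 and Ckmt2, 6 of them genes of the cycle (12 members) or complex II (4 members). The 10 were Dlst, Cs, Uqcrh, Atp5h, Atp5b, Atp5j2, Atp5j, Atp5a1, Atp5c1 and Slc25a4, of which 6 belong to the ATP synthase (16 members). Whether the roles differ in this was not tested. From adult to TAC CMCs both TAC lists lay below in 18 members (37.5%) against 23.9%, and above in 1, Atpif1, against 6.32%. When each list was divided by its mean over all genes, these last counts were 11 lower and 5 higher (12.4% and 16.6% of all genes), those from neonatal to adult were 8 higher and 13 lower (16.9% and 25.9%), and those from E14.5 to neonatal were 27 higher and 1 lower (15.7% and 20.0%).

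**Figure D2:**
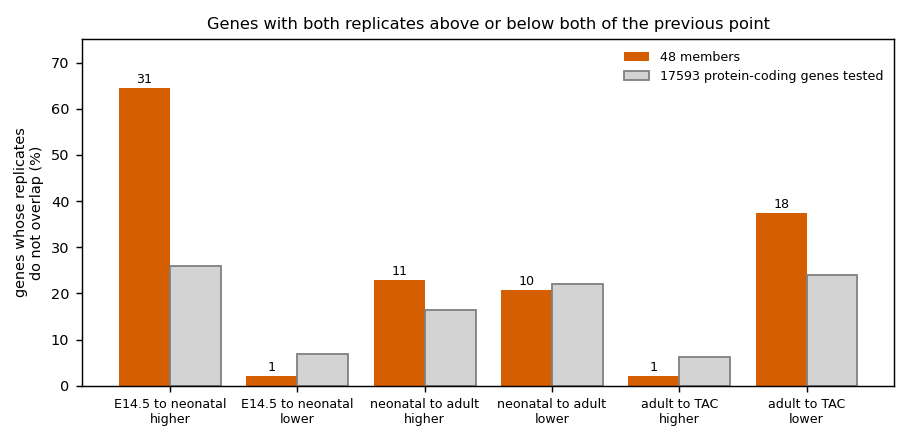
Share of genes (vertical axis, %) whose 2 replicates lay both above or both below the 2 replicates of the previous point, for each transition and direction (horizontal axis). Dark bars are the 48 members, with their number above, and light bars all genes tested; the tallest bar is the 31 members higher from E14.5 to neonatal.

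The 2 TAC lists gave different pictures of the same genes. TAC replicate 1 lay below both adult lists in 18 members (31.6% of all genes) and above both in 13 (20.3%). TAC replicate 2 lay below both in 36 members (44.8%) and above both in 2, Atpif1 and Slc25a4 (18.4%). Among the 92 peaks of TAC replicate 2 at the members, 57.6% shared at least 50% of their length with a peak of another list, against 74.9% to 86.7% in the other lists. What part this has in the lower TAC values was not tested.

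The highest of the 4 means lay in neonatal CMCs in 22 members (31.7% of all genes) and in adult CMCs in another 22 (33.8%). Ties were counted at the earliest point, in members and all genes alike. The first 22 thus include Atp5g3, whose neonatal, adult and TAC means were all 6.25%. It lay at E14.5 in 1 member, Slc25a4 (23.7%), and under TAC in 3, Sdhc, Uqcrq and Atpif1 (10.7%). Peaks were present in all 8 lists in 20 members (48.8% of all genes tested). A peak anywhere in the window in both replicates was found in 26 members at E14.5, 43 in neonates, 41 in adult and 31 under TAC, against 57.3%, 61.3%, 57.6% and 53.8% of the 21774 protein-coding genes.

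**Figure D3:**
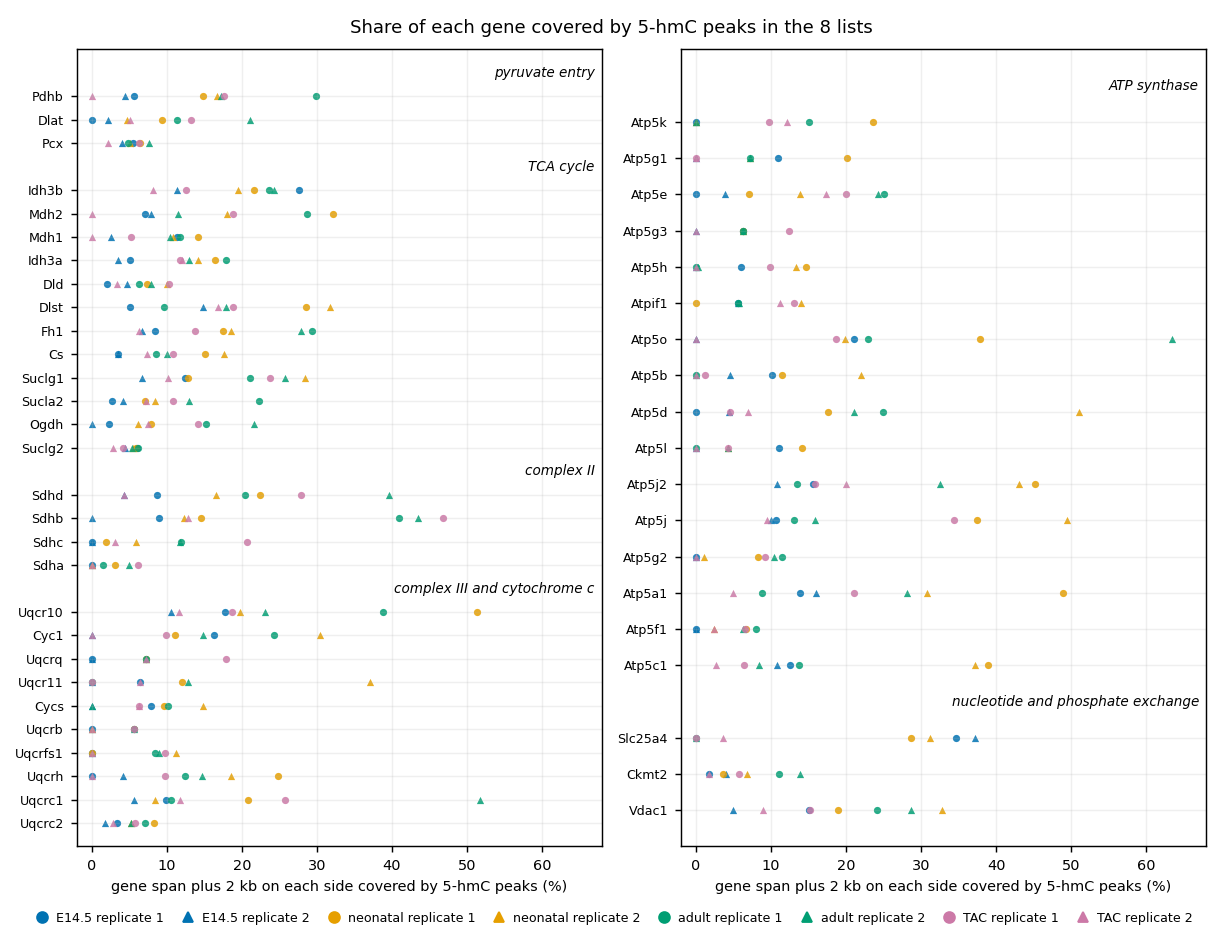
Share of gene span plus 2 kb on each side under 5-hmC peaks (horizontal axis, %) for each of the 48 members (vertical axis, by role group and, within it, by gene length). Each point is 1 list, coloured by point, with circles for replicate 1 and triangles for replicate 2; the highest value is 63.4%, of Atp5o in adult replicate 2.

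Pyruvate enters the cycle through the pyruvate dehydrogenase complex, of which Pdhb encodes a subunit of the first enzyme and Dlat the second enzyme. In Pdhb (chr14:8165991-8173303) peaks covered 5.63% and 4.43% at E14.5, 14.9% and 16.7% in neonates, 29.8% and 17.3% in adults, and 17.7% and 0% under TAC. In Dlat the values were 0% and 2.17%, 9.39% and 4.68%, 11.4% and 21.2%, and 13.2% and 5.16%. In both genes neither the E14.5 and neonatal nor the neonatal and adult replicates overlapped. Pcx, the pyruvate carboxylase that refills the cycle, lay between 2.13% and 7.67% in all 8 lists.

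In the TCA cycle the highest means over the 8 lists belonged to Idh3b, a subunit of the NAD-dependent isocitrate dehydrogenase, and Dlst, the second enzyme of the 2-oxoglutarate dehydrogenase complex. Idh3b was covered at 27.6% and 11.4% at E14.5, 21.7% and 19.4% in neonates, 23.7% and 24.3% in adults, and 12.5% and 8.13% under TAC. Dlst stood at 5.07% and 14.8%, 28.6% and 31.7%, 9.67% and 17.9%, and 18.8% and 16.8%. Dlst was thus most covered in neonatal CMCs, and its adult and TAC replicates overlapped.

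Fh1 and Ogdh were most covered in adult CMCs. Fh1, the fumarase (chr1:175601378-175625635), was covered at 8.45% and 6.71% at E14.5, 17.5% and 18.6% in neonates, 29.3% and 28.0% in adults, and 13.8% and 6.26% under TAC, with no overlap between neighbouring points (exact permutation p = 0.0286, limma adjusted p = 0.360). Ogdh, the first enzyme of the 2-oxoglutarate dehydrogenase complex, stood at 2.28% and 0%, 7.91% and 6.17%, 15.3% and 21.7%, and 14.2% and 7.46% (exact permutation p = 0.0190, limma adjusted p = 0.278). In both genes the mean in adult CMCs was above that of each other point, by 1.59-fold over the neonatal mean in Fh1 and 2.63-fold in Ogdh.

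Succinyl-CoA ligase is built from Suclg1 and either Sucla2, with which it makes ATP, or Suclg2, with which it makes GTP. Suclg1 was covered at 12.5% and 6.68% at E14.5, 12.9% and 28.5% in neonates, 21.1% and 25.8% in adults, and 23.8% and 10.2% under TAC. Sucla2 stood at 2.75% and 4.23%, 7.12% and 8.45%, 22.3% and 13.0%, and 10.8% and 7.22%, with no overlap between neighbouring points. Suclg2, the longest member at 245850 bp, lay between 2.89% and 6.18% in all 8 lists. The order of Sucla2, lowest at E14.5 and highest in adults, is thus not seen in Suclg2, and the difference between the 2 partners was not tested.

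In complex II, Sdhb encodes the iron-sulfur subunit and Sdhd a membrane anchor. Sdhb (chr4:140961271-140979198) was covered at 8.94% and 0% at E14.5, 14.55% and 12.3% in neonates, 41.0% and 43.5% in adults, and 46.8% and 12.9% under TAC. From neonatal to adult this was a difference of 28.8 percentage points (3.14-fold), the largest among members whose adult lists lay above both neonatal lists. One peak of 7577 bp in adult replicate 2 and peaks of 3756 and 3619 bp in adult replicate 1 and TAC replicate 1 lay over the same part of the gene. Sdhd stood at 8.71% and 4.35%, 22.5% and 16.5%, 20.4% and 39.6%, and 27.9% and 4.35%, and its neonatal and adult replicates overlapped. Sdhc, the other anchor, had no peak at E14.5 and 11.9% and 11.8% in adult CMCs.

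Complex III was led by Uqcr10, a small subunit, and Uqcrc1, a core subunit. Uqcr10 was covered at 17.8% and 10.6% at E14.5, 51.3% and 19.7% in neonates, 38.8% and 23.1% in adults, and 18.7% and 11.7% under TAC. Uqcrc1 stood at 9.87% and 5.61%, 20.8% and 8.51%, 10.6% and 51.8%, and 25.8% and 11.8%. The adult replicates of Uqcrc1 lay further apart than any pair of its means, so its order over the points cannot be read.

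Among the subunits of the ATP synthase, Atp5j2 (subunit f), Atp5j (coupling factor 6) and Atp5c1 (the gamma subunit, the turning shaft of the enzyme) shared a neonatal maximum. Atp5j2 was covered at 15.6% and 10.8% at E14.5, 45.2% and 43.0% in neonates, 13.5% and 32.5% in adults, and 15.9% and 20.0% under TAC. Atp5j stood at 10.7% and 10.1%, 37.5% and 49.4%, 13.1% and 15.8%, and 34.4% and 9.47%. Atp5c1 (chr2:10056030-10080510) stood at 12.6% and 10.8%, 38.9% and 37.2%, 13.7% and 8.41%, and 6.41% and 2.70% (exact permutation p = 0.0286, limma adjusted p = 0.169). In each of the 3 genes both neonatal lists lay above all 4 lists of E14.5 and adult CMCs. The neonatal mean was 3.34 times that at E14.5 in Atp5j2, 4.18 times in Atp5j and 3.25 times in Atp5c1, and the adult mean was 0.521, 0.333 and 0.291 times the neonatal one.

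The neonatal coverage of Atp5c1 came largely from single broad peaks. One of 8767 bp in neonatal replicate 1 and one of 5915 bp in replicate 2 lay in the first part of the gene, where E14.5 lists had separate peaks of at most 1620 bp and the adult lists none. The adult peaks lay further down the gene, after its end and, in replicate 1, before its start, and in both adult lists one of them lay over the stretch printed above.

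Atp5d (the delta subunit) and Atp5e (the epsilon subunit) of the central stalk had little coverage at E14.5. Atp5d was covered at 0% and 4.50% at E14.5, 17.7% and 51.1% in neonates, 24.9% and 21.1% in adults, and 4.62% and 6.92% under TAC, but only 50.8% of its window lies on no other protein-coding gene. Among the other members this share was lowest in Uqcrq (70.2%), Atp5j (71.0%) and Uqcr10 (73.5%). Atp5e stood at 0% and 3.91%, 7.13% and 13.9%, 25.1% and 24.3%, and 20.0% and 17.4%, with no overlap between neighbouring points (exact permutation p = 0.00952, the smallest possible, and limma adjusted p = 0.322). Atp5e thus stood highest in adult CMCs, 14.2 percentage points above the neonatal mean, while the mean of the ATP synthase genes stood highest in neonates.

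Atp5b and Uqcrq, chosen after their values were seen like Pcx, Sdhc and Ckmt2 elsewhere in the text, had the lowest limma adjusted p after Slc25a4. Atp5b, the catalytic beta subunit (chr10:128083307-128090388), was covered at 10.2% and 4.52% at E14.5, 11.4% and 22.0% in neonates, 0% in both adult lists, and 1.19% and 0% under TAC. Uqcrq, a small subunit of complex III, had no peak at E14.5, 7.25% in both neonatal and both adult lists, and 17.9% and 7.25% under TAC. The repeated 7.25% is the share of its short window that a single peak of median width takes. The median width was the same in all 8 lists. The replicates of Uqcrq therefore had no spread at E14.5, in neonates or in adults, and its low adjusted p rests on such narrow peaks. Atp5b thus joined Slc25a4 as a member without any peak in both adult lists, the 2 members of which this holds. List by list, 5 of 48 members had no peak in adult replicate 1 and 4 in adult replicate 2. Among the 21774 protein-coding genes these numbers were 7867 and 7310, so genes without an adult peak are common.

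Atp5o, which encodes the connecting subunit OSCP, had the largest difference from adult to TAC among members without overlap, at 33.8 percentage points lower. It was covered at 21.1% and 0% at E14.5, 37.9% and 19.9% in neonates, 23.0% and 63.4% in adults, and 18.7% and 0% under TAC, and its adult replicates lay further apart than any pair of its means. Atpif1, the inhibitor that limits ATP hydrolysis, was the single member above both adult lists in both TAC lists, at 13.1% and 11.3% against 5.63% and 5.74%, after 5.63% in both E14.5 lists and 0% and 14.0% in the neonatal lists. In its short window 5.63% is the share that a single peak of median width takes. The difference from adult to TAC is thus on the scale of a single narrow peak.

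The membrane ring of the ATP synthase is made of subunit c, encoded by Atp5g1, Atp5g2 and Atp5g3, whose mature proteins are identical. Atp5g1 was covered at 11.0% and 0% at E14.5, 20.2% and 7.26% in neonates, 7.26% in both adult lists and 0% in both TAC lists. Atp5g2 had no peak at E14.5 and stood at 8.33% and 1.09%, 11.4% and 10.4%, and 9.23% and 0%. Atp5g3 stood at 6.25% and 0%, 6.25% in all neonatal and adult lists, and 12.5% and 0% in the TAC lists. The highest point was neonatal for Atp5g1 and adult for Atp5g2, and Atp5g3 had none that stood out. The repeated 7.26% of Atp5g1 and 6.25% of Atp5g3 each stand for a single peak of median width in a short window.

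Of the 3 exchange genes, Slc25a4 was the one member covered most at E14.5. It encodes the adenine nucleotide translocator of heart and muscle, which exports ATP from the mitochondrion for ADP. In Slc25a4 (chr8:46207168-46211062) peaks covered 34.7% and 37.2% at E14.5, 28.6% and 31.2% in neonates, 0% in both adult lists, and 0% and 3.61% under TAC (exact permutation p = 0.0286, limma adjusted p = 0.0732). The E14.5 and neonatal peaks lay in the body of the gene and in the 2 kb after it, and the 1 peak of TAC replicate 2 lay before the gene. No other protein-coding gene lies in the window. The difference of 6.05 percentage points between E14.5 and neonatal CMCs changed direction with 5 kb on each side, with lists drawn down to equal peak numbers, and with only peaks shared for at least 50% of their length with another list. That of 29.9 points from neonatal to adult had the same direction in every alternative run. With 0% in both adult lists, only the 5 kb flanks could have reversed it.

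Vdac1, the channel of the outer mitochondrial membrane, was covered at 15.1% and 5.03% at E14.5, 18.9% and 32.7% in neonates, 24.2% and 28.7% in adults, and 15.2% and 8.92% under TAC. Its E14.5 replicates lay below both neonatal ones, and its neonatal and adult replicates overlapped. Ckmt2, the mitochondrial creatine kinase of striated muscle, was highest in adult CMCs at 11.1% and 13.9%, with 1.82% to 6.80% in the other 6 lists.

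**Figure D4:**
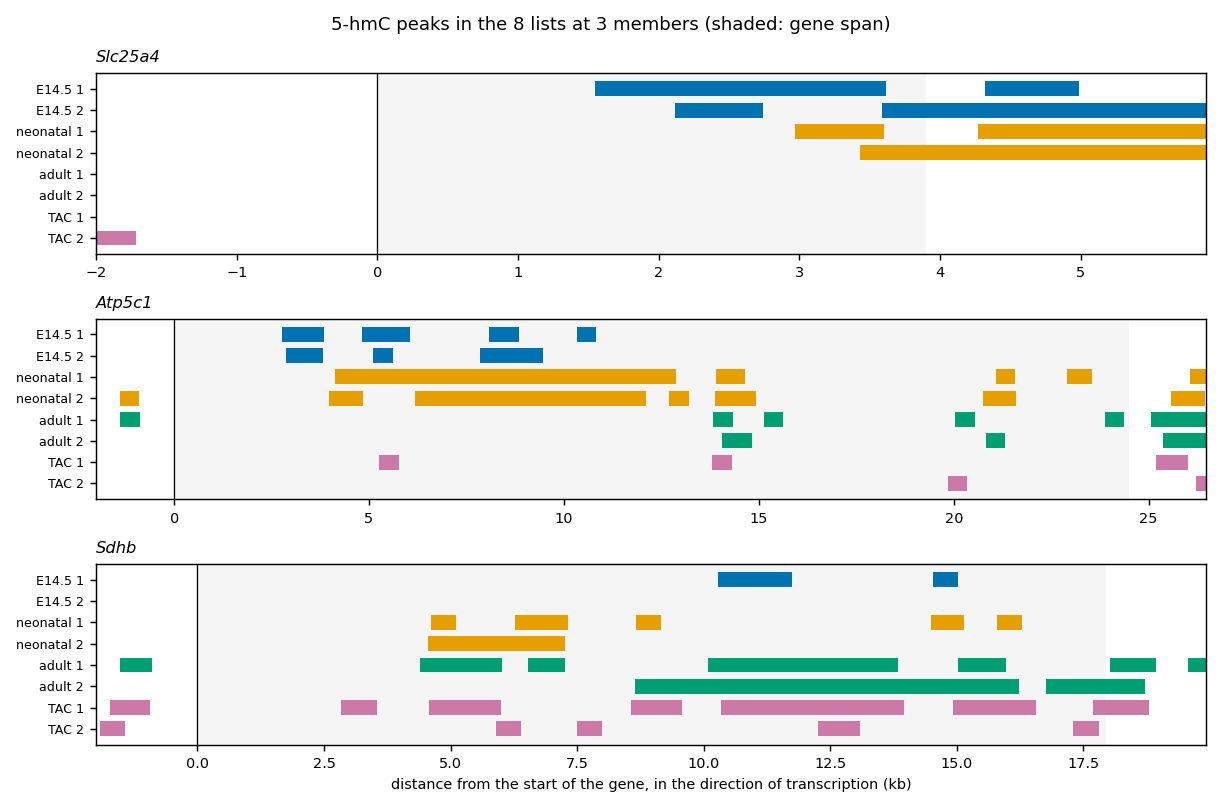
5-hmC peaks in the 8 lists (rows) at Slc25a4, Atp5c1 and Sdhb, drawn to scale against the distance from the start of the gene in the direction of transcription (horizontal axis, kb), with the gene span shaded. Slc25a4 has peaks in the 4 lists of E14.5 and neonatal CMCs and 1 before the gene in TAC replicate 2, Atp5c1 has the broad neonatal peaks, and Sdhb the wide adult ones.

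Along the genes, the members were covered less than other genes at the start at each point, and more than other genes from 2 to 3 kb after it at E14.5 and above all in neonates. In the 500 bases before the start, peaks covered 0.0854% ± 0.121 of the members at E14.5, 1.53% ± 2.16 in neonates, 0.267% ± 0.377 in adults, and 0.050% and 0% in the TAC lists, against 3.75% to 4.71% over all protein-coding genes (SD, n = 2 each). From 2 to 3 kb after the start the 43 members that reach so far stood at 14.9% ± 8.50, 28.4% ± 3.95 and 10.7% ± 0.880 at E14.5, in neonates and in adults, against 6.11%, 8.84% and 9.12% over all genes of this length (SD, n = 2 each). The E14.5 lists differed, at 20.9% and 8.84%, and the TAC lists stood at 7.37% and 2.28%, against 7.66% and 4.97% over all genes. From 10 to 20 kb the 15 longer members stood at 4.45% ± 2.32, 12.1% ± 0.428 and 17.6% ± 3.25 at these points (SD, n = 2 each), and at 17.5% and 7.75% in the TAC lists. All genes that reach 20 kb stood there at 5.63%, 7.59% and 7.37% at E14.5, in neonates and in adults. The neonatal values were thus above the adult ones in the 43 members from 2 to 3 kb and below them in the 15 from 10 to 20 kb. The 2 bins hold different sets of members, with Atp5c1 the only ATP synthase gene among the 15. A change along the same genes therefore cannot be read from them. In the last 2 kb of the 35 members of over 5 kb, coverage was 5.21% ± 0.562 at E14.5, 22.4% ± 3.77 in neonates, 27.7% ± 7.46 in adults (SD, n = 2 each), and 20.2% and 10.4% in the TAC lists. The bins share genes and lists, and their order was not tested.

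**Figure D5:**
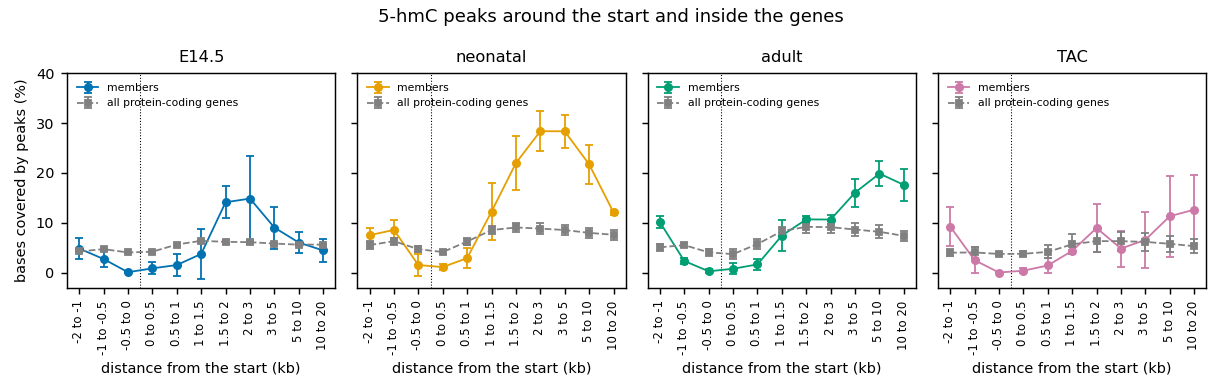
Share of bases under 5-hmC peaks (vertical axis, %) in bins of distance from the start (horizontal axis, kb; bins of unequal width) at the 4 points. Solid lines are the members and dashed lines all protein-coding genes that reach the bin; error bars are the SD of 2 replicates. The neonatal curve of the members peaks at 28.4% between 2 and 3 kb and the adult one at 19.9% between 5 and 10 kb. Fewer members reach the farther bins, so the bins hold different sets of genes.

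Peaks within 1 kb of a start in both replicates were few. They were found in Dlst at E14.5 (10.9% of all genes), in Idh3b, Cs and Atp5j in neonatal CMCs (12.9%), in Suclg2 and Atp5g1 in adult CMCs (11.2%) and in Atp5k under TAC (7.28%). In 21 members no list had a peak within 1 kb of a start, against 45.4% of all genes. By annotation, coding exons of the members were covered at 7.78%, 20.5% and 26.3% at E14.5, in neonates and in adults, and introns at 5.48%, 12.4% and 12.5%, with SDs (n = 2 each) between 0.167 and 5.61. The TAC lists had 20.1% and 6.69% in coding exons and 10.3% and 4.67% in introns. The 2 kb after the genes (4.48% ± 2.25, 14.8% ± 0.198 and 16.8% ± 0.756, and 14.6% and 5.56% in the TAC lists) were more covered than the 2 kb before them (3.12% ± 1.50, 6.28% ± 1.76 and 5.73% ± 0.893, and 7.09% and 3.43% in the TAC lists) by their means (SD, n = 2 each).

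Of 53 related genes that are no members (other enzymes of pyruvate entry and the cycle, assembly factors of complexes II and III and the ATP synthase, and other exchange genes), 52 were tested and 0 were called by limma, with 8 at an unadjusted F-test p below 0.05 (10.9% of all genes). Without overlap of replicates, 25 of the 52 were higher and 1 lower from E14.5 to neonatal (25.9% and 6.92% of all genes). From neonatal to adult 7 were higher and 10 lower (16.3% and 22.0%), and from adult to TAC 0 were higher and 14 lower (6.32% and 23.9%), of which the counts 7, 10 and 14 lie near the share of all genes. Their mean was 0.793 ± 0.236 times that of all protein-coding genes at E14.5, 1.52 ± 0.125 times in neonates and 1.51 ± 0.0894 times in adults (SD, n = 2 each), and 1.69 and 1.12 times in the TAC lists. The mean of the members stood above that of the related genes in each list, and among the related genes the 12 exchange genes (other carriers, channels and creatine kinases) reached 2.80 ± 0.479 times in neonatal CMCs (SD, n = 2). All 9 CMC markers tested were lower in adult than in neonatal CMCs without overlap of replicates, against 22.0% of all genes, and the 10 of 48 members stand near that share. The part of the CMC markers in the values of the members was not tested.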

How the data were processed

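5-hmC was measured by hydroxymethylated DNA immunoprecipitation sequencing in ventricular CMCs, with 2 replicates at each of 4 points. Per the paper's methods and the labels, the authors aligned reads to mm10 with BWA 0.7.4-r385, marked duplicates with Picard, filtered on mapping quality and called peaks per replicate against input with HOMER. The deposited lists hold coordinates and a score that is 1 for each peak and carries no strength, so depth and peak height are unknown. Control and precipitated reads were scaled in different directions between lists, per the file headers.

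Gene spans came from the RefSeq annotation of GRCm38.p6 (release 108), the same build as mm10, and each was extended by 2 kb on each side. The percent covered by peaks was computed per gene and list (Python 3.11.15, bedtools 2.31.1). The main test was limma 3.58.1 (R 4.3.3, trend and robust) on log2(percent + 1) over the 17593 genes with a peak in at least 2 lists, with Benjamini-Hochberg adjustment over all of them, and was tested on simulated data. Single members have an exact permutation test, one-sided for a larger spread between points, over the 105 divisions of the 8 lists into 4 pairs. The share called, or without overlap of replicates, over all genes was computed with each count of members. Length classes, pseudocount, flanks, peak sharing, equal peak numbers, list scaling and each list left out were alternatives.

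The members and lists were chosen with earlier results of these data known. Named with values were the 2 members of highest mean in each of 6 role groups, up to 3 with the largest difference in each direction and transition without overlap of replicates, and 2 sets of related subunits (of subunit c and of succinyl-CoA ligase). The sequence before the start of Slc25a4 was added after its values were seen and comes from the RefSeq promoter table.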

Additional observations from a re-analysis of the deposited data

How the results depend on the processing

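Of 149 values under alternatives, 121 kept within the replicate spread, or within 1.5 times for counts, and 28 moved. Among the 121 are counts of 0 members called that stayed at 0. In several of these settings the test called 0 of all genes, so such counts say nothing of stability. The limma test called 0 of 48 members over the 4 points. It called 4 with the gene span alone (Atp5d, Atp5b, Atp5e and Slc25a4, adjusted p between 0.0219 and 0.0292; 257 of 16420 genes, 1.57%), 1 with a pseudocount of 0.1 (Uqcrq, adjusted p = 0.0472; 90 genes, 0.512%), 1 with only peaks sharing at least 1 bp with another list (Atp5b, adjusted p = 0.0469; 158 of 16827 genes, 0.939%) and 2 with only bases on no other protein-coding gene (Atp5d and Atp5e; 56 of 16925 genes, 0.331%), an alternative chosen after seeing the data. Per transition, the gene span alone called 2 members from E14.5 to neonatal (35 genes, 0.213%) and 2 from neonatal to adult (155 genes, 0.944%), and sharing 1 bp called 1 from neonatal to adult (99 genes, 0.588%). The cause was not tested. The exact permutation test, adjusted over all genes, called 0 members, with a lowest adjusted p of 0.579.

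Members higher under TAC than in adults without overlap, 1 in the report, numbered 2 with the gene span alone (5.81% of all genes), 5 with lists scaled by their mean (16.6%), 2 with equal peak numbers (7.59%), 0 with peaks sharing 50% of their length (1.41%), 2 with the first part of each list (5.17%; chosen after seeing the data) and 2 on bases of no other gene (6.25%). Members lower numbered 11 in place of 18 with scaled lists (12.4%), and those lower from neonatal to adult 6 in place of 10 with equal peak numbers (13.1%). Those lower from E14.5 to neonatal numbered 0 in place of 1 with 5 kb flanks (7.01%), equal peak numbers (9.5%) or the first part of each list (6.18%).

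The mean relative to all genes was 1.77, 3.92, 3.87 and 2.86 over the 4 points in order as a ratio of medians, and 2.41 in adults with the first part of each list. The share of members with a peak within 1 kb of a start, relative to all genes, was 0.400, 1.03, 0.639 and 0.664. It was 1.05, 1.49, 1.30 and 1.01 within 2 kb, and 0.660 in neonates with equal peak numbers.

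Leaving out 1 list leaves its point with a single list, so the limma calls of those fits are not read here. Without 1 list, members higher from E14.5 to neonatal numbered 31 to 41 (25.9% to 48.1% of all genes) and lower 1 to 3 (6.92% to 21.9%), from neonatal to adult 11 to 18 (16.3% to 36.5%) and 10 to 19 (22.0% to 41.2%), and from adult to TAC 1 to 13 (6.32% to 20.3%) and 18 to 36 (23.9% to 48.8%). Leaving out a list can only keep or raise such a count. The lower end of each range is thus the count with all lists and is no measure of stability. Without TAC replicate 1 there were 2 higher (18.4%) and 36 lower (44.8%), and without TAC replicate 2 there were 13 (20.3%) and 18 (31.6%). Without adult replicate 1 or 2 there were 3 (11.3%) or 4 (18.2%) higher under TAC. From neonatal to adult, without neonatal replicate 1, 18 were higher (22.4%) and 19 lower (41.2%), and without neonatal replicate 2, 17 (29.9%) and 17 (31.4%). From E14.5 to neonatal, 3 were lower without E14.5 replicate 2 (19.3%) and 2 without neonatal replicate 2 (21.9%). The share of all genes moved with these counts.

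The ratio of means ranged over 0.951 to 1.45 at E14.5, 2.29 to 2.80, 2.01 to 2.33 and 1.42 to 2.19. The ends of these ranges are the ratios of the single lists of each point. The fit with the replicate number as a block called 0 members over the 4 points and 0 in each transition. It also called 0 of 17593 genes in each, so this says nothing of the members in particular. Deviations of lists with equal replicate number correlated at 0.0164 to 0.238 over 6 pairs of points. The highest were 0.238 for E14.5 and neonatal and 0.109 for E14.5 and TAC. Whether lists of equal number share more than the number was not tested.

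Of 14 named differences, 13 had the same direction in each alternative, and the exception was Slc25a4 from E14.5 to neonatal. All 14 were named as the largest differences without overlap of replicates, so leaving out a list could not reverse any of them. The other alternatives drew on the same lists. The shared direction thus follows in large part from the choice of these differences and is no independent measure of stability. Unknown depth and peak height, 2 lists per point and the displacement of TAC replicate 2 limit what these lists can show.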
